A study of Mus musculus with 3 samples.

Results

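The genes described here are the ligands, receptors, Smads, antagonists and latency proteins of the TGFβ superfamily, read on 3 Affymetrix mouse arrays. The list holds 59 gene symbols, and a gene was included through every probe set that is annotated with its symbol alone. This gave 121 probe sets for 55 genes, out of 34945 probe sets for 18193 genes on the array. Bmp3, Gdf6, Gdf15 and Mstn were paired with no such probe set and are not analysed here.

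Signalling in this superfamily starts when a dimeric ligand brings together type II and type I receptor kinases at the cell surface. The type I receptor then phosphorylates a receptor-regulated Smad, which joins the common Smad4 and enters the nucleus to control transcription. TGFβ and activin ligands act mainly through Smad2 and Smad3, and BMP and most GDF ligands through Smad1, Smad5 and Smad9, while secreted antagonists and inhibitory Smads hold the signal in check. In tendon, ligament and cartilage both branches are known to guide how mesenchymal progenitors differentiate.

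RNA came from cultures of C3H10T1/2, a mouse mesenchymal cell line, in 3 states with 1 array each. The first state was C3H10T1/2 without a vector. The second, Venus, had been infected with a retrovirus carrying the fluorescent protein Venus, and the third, Venus-Mkx, with a retrovirus carrying Venus-Mkx, where Mkx is the homeobox transcription factor Mohawk. The culture medium held serum in each case. The transgenes were carried by the pMIGR vector and virus was added in medium with puromycin, and for the cells put on the arrays the sources used here do not say if they were a clone or a pool. The arrays were run to learn how Mkx acts on the choice of cell lineage.

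Mkx itself, read by probe set 1437492_at, had log2 values of 6.88 in C3H10T1/2, 7.43 in Venus and 2.71 on the third array, which runs against its label. That array is therefore named below by its label, as the array labelled Venus-Mkx, and every direction given for it rests on that label. Whether this probe set covers the Mkx sequence of the vector is not known. With no replicate array, no difference below has a replicate check and no p-value is given. All values are log2 probe set values as deposited, and values below a floor of 4.34, the median of all values, were treated as background. A gene is called measured when its probe set with the highest mean reached the floor on at least 1 array, and it is counted as higher or lower only if the array labelled Venus-Mkx lay at least 2-fold, or 1 on the log2 scale, above both control arrays or below both. Among all 11169 measured genes, 6.82% were higher and 5.34% lower by this rule.

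All 12 mesenchymal markers on the list used were above the floor on each array, with a mean log2 level of 10.85, 10.98 and 10.86 in C3H10T1/2, Venus and the array labelled Venus-Mkx. Single markers were not level. Col3a1 read 13.10, 13.53 and 9.68, Col1a1 11.52, 11.88 and 13.22, and Thy1 7.27, 7.26 and 8.68. Of 8 macrophage markers, Cd14 and Csf1r reached the floor, and Ptprc and Adgre1 did not on any array. The list means were 3.40, 3.57 and 3.65, Csf1r read 4.45, 5.39 and 6.62, and Cd14 read 6.62, 6.99 and 6.49. Of 7 endothelial markers, only Tek reached it, at 4.53, 4.02 and 5.95, while Pecam1 and Cdh5 stayed below, and the list means were 2.97, 2.87 and 3.17. Epcam was the only one of 6 epithelial markers to reach the floor, and lay above it at 6.74, 7.03 and 7.60. The epithelial list means were 3.87, 3.98 and 3.98. Of 6 skeletal muscle markers, 3, 3 and 2 reached the floor on the 3 arrays, with list means of 4.08, 4.14 and 3.69, and Myog read 5.53, 6.15 and 3.76. Of 5 neuronal markers, 3 reached the floor on each array, with list means of 4.97, 4.90 and 5.22. The highest of them, Map2, read 9.25, 9.57 and 9.61. The part of these genes in the results below was not tested, and in bulk RNA fewer cells of a type cannot be told apart from less RNA per cell.

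Of the 55 genes with a probe set, 45 were measured and 10 were below the floor on all 3 arrays. Gdf5, Tgfb1, Acvr2a, Tgfbr2 and Smad3 had higher values on the array labelled Venus-Mkx than on both controls, which is 5 of 45, or 11.1%, beside 6.82% of all measured genes. Bmp4 and Acvr1b were lower, which is 2 of 45, or 4.44%, beside 5.34%. With values below the floor set to the floor, these counts were again 5 and 2, beside 6.22% and 4.97% of all measured genes. The other 38 measured genes were neither. Of the 7 genes, Gdf5 and Bmp4 also met the rule when all probe sets of a gene were averaged, and the other 5 did not. Gdf5 and Bmp4 have 1 probe set each, so averaging could not change them. For the other 5 the average took in further probe sets, also any below the floor. Tgfbr2 no longer met the rule when arrays were centred on their medians, where its difference from Venus was 0.98 in place of 1.02. Acvr1b no longer met it when arrays were quantile normalized, where its difference was −0.99 in place of −1.01. Of the 38, Tgfbr3, Ltbp3, Ltbp1, Bambi and Grem1 were at least 2-fold away from 1 of the controls only. Set against Venus by itself, 6 genes were at least 2-fold higher and 4 lower, where 7.42% and 6.68% of all measured genes were. Set against C3H10T1/2 by itself, 6 were higher and 3 lower, where 8.74% and 6.80% were. The median log2 difference from Venus over the 45 genes was 0.00, and it was 0.00 over all measured genes too. Both medians fell on genes with equal values on the 2 arrays, so their likeness says little. Of the 45 genes, 21 lay above Venus, 17 below and 7 were equal, and for all measured genes these counts were 4777, 5115 and 1277. In absolute size, the median difference from Venus was 0.36 for the superfamily and 0.28 for all measured genes, against 0.11 and 0.10 between the Venus and C3H10T1/2 arrays.

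**Figure D1:**
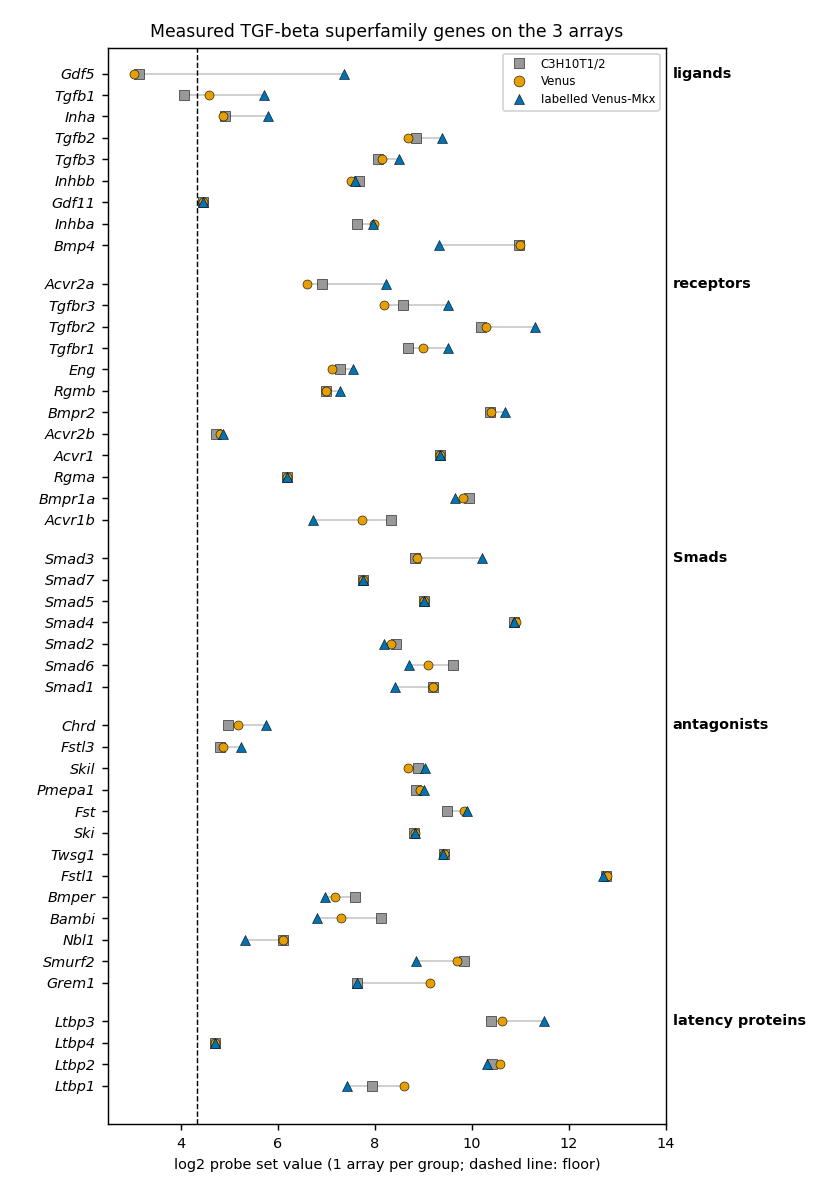
Log2 probe set values (x axis) of the 45 measured genes of the superfamily (y axis, by role and by difference from Venus) on the 3 arrays, 1 array per state. Squares are C3H10T1/2, circles Venus and triangles the array labelled Venus-Mkx; grey lines join the lowest and highest value of a gene and the dashed line is the floor of 4.34. Gdf5 lies below the floor in both controls and at 7.37 on the third array, and Bmp4 lies at 10.97 and 11.00 in the controls and at 9.33 on the third array.

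Among the 9 measured ligands, Gdf5 and Tgfb1 were counted as higher and Bmp4 as lower on the array labelled Venus-Mkx, and Tgfb2 and Tgfb3 as neither. These shares, 22.2% and 11.1%, stand beside 6.82% and 5.34% of all measured genes and rest on few genes. Gdf5, a BMP-branch ligand known for its part in joint and tendon formation, read 3.14 in C3H10T1/2, 3.03 in Venus and 7.37 on the array labelled Venus-Mkx. Both controls were below the floor, so the difference is given as a limit: expression was at least 8.15-fold higher than in either control. Gdf5 was read by 1 probe set, 1419139_at.

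Tgfb1, which encodes the ligand that gives the family its name, read 4.06, 4.57 and 5.71 in the same order. It was 2.20-fold higher than in Venus and, because C3H10T1/2 was below the floor, at least 2.58-fold higher than in C3H10T1/2. All 3 levels were low, and the other probe set of Tgfb1, below the floor, held 3.54 on each array. Tgfb2, the second TGFβ isoform, read 8.85, 8.70 and 9.40, a log2 difference of 0.70 from Venus. All 4 of its probe sets were above the floor and lay above both controls, by 0.50 to 0.90 over Venus. Tgfb3 read 8.06, 8.15 and 8.51, a difference of 0.36 from Venus. None of the Tgfb2 and Tgfb3 probe sets reached 2-fold, and each lay above both controls.

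Bmp4, a BMP ligand with broad roles in mesoderm, read 10.97, 11.00 and 9.33. The controls were almost level, and the log2 difference of the array labelled Venus-Mkx was −1.66 from Venus and −1.64 from C3H10T1/2. Of the other BMP and GDF ligands, Gdf11 held 4.45 on all 3 arrays, and Bmp2, Bmp5, Bmp6, Bmp7 and Gdf10 were below the floor on each. Bmp4 was thus the only gene named as a BMP on the list whose probe set reached the floor. Among activin and inhibin subunits, Inha, which encodes the inhibin α chain, read 4.91, 4.87 and 5.79 and stayed under 2-fold. Inhba, which encodes the activin A subunit, read 7.63, 7.98 and 7.96, and Inhbb 7.67, 7.51 and 7.60. The array labelled Venus-Mkx lay between the controls for both. Over the 9 measured ligands the median log2 difference was 0.36 from Venus and 0.44 from C3H10T1/2.

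Of 12 measured receptors and co-receptors, Tgfbr2 and Acvr2a were counted as higher and Acvr1b as lower. These shares, 16.7% and 8.33%, stand beside 6.82% and 5.34% of all measured genes and again rest on few genes. Tgfbr2, the type II receptor that binds TGFβ, read 10.18 in C3H10T1/2, 10.29 in Venus and 11.31 on the array labelled Venus-Mkx. This was 1.02 above Venus, at the edge of the rule, and 1.13 above C3H10T1/2. A second probe set, 1425444_a_at, held 5.07 on all 3 arrays. Tgfbr1, the matching type I receptor, read 8.69, 9.00 and 9.51, so it lay 0.50 above Venus, while Venus lay 0.32 above C3H10T1/2. Tgfbr3, the co-receptor betaglycan, which presents TGFβ2 to the signalling receptors, read 8.59, 8.18 and 9.52. It was at least 2-fold above Venus, with a log2 difference of 1.34, but not above C3H10T1/2, with 0.93. Eng, which encodes endoglin, read 7.28, 7.12 and 7.55. Acvrl1, a type I receptor known from endothelium, was below the floor throughout.

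The activin receptor genes differed in direction. Acvr2a, a type II receptor for activins and some BMPs, read 6.91, 6.60 and 8.23, which was 1.63 above Venus and 1.32 above C3H10T1/2. Its other probe set, 1451004_at, read 5.75, 5.28 and 5.67, a log2 difference of 0.38 from Venus and −0.08 from C3H10T1/2. Acvr2b, the related type II receptor, read 4.72, 4.80 and 4.86. Acvr1b, the type I receptor for activin, read 8.34, 7.73 and 6.72 with a difference of −1.01 from Venus and −1.62 from C3H10T1/2. For this gene the controls themselves were apart, with a difference of −0.61 between Venus and C3H10T1/2.

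The BMP receptors showed small differences that depended on the probe set. Bmpr1a, a type I receptor, read 9.94, 9.81 and 9.65 with the probe set used, a difference of −0.16 from Venus. With 3 other probe sets the difference from Venus was −0.51, −0.60 and −0.70, and with another it was 0.00. All 5 Bmpr1a probe sets at or above the floor were below C3H10T1/2, with differences from −0.77 to −0.12. Bmpr2, the type II receptor, read 10.37, 10.40 and 10.68, while probe set 1419616_at read 6.81, 6.71 and 6.49, so the direction differed between them. Acvr1, a further BMP type I receptor, held 9.35 on all 3 arrays and 6.07, 6.07 and 6.23 with a second probe set. Bmpr1b was below the floor on all arrays. Of the BMP co-receptors, Rgmb read 7.00, 7.00 and 7.29 with the probe set used. All 5 of its probe sets at or above the floor lay above both controls, by 0.29 to 0.89 over Venus. Rgma held 6.19 on each array.

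**Figure D2:**
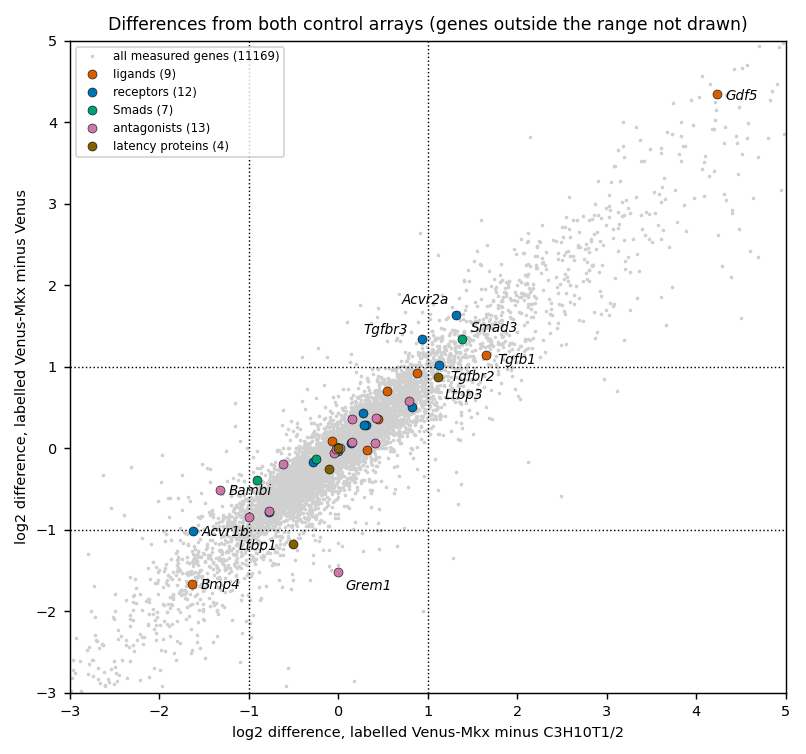
Log2 difference of the array labelled Venus-Mkx from Venus (y axis) against its difference from C3H10T1/2 (x axis) for 11169 measured genes (grey) and the 45 measured genes of the superfamily (coloured by role), 1 array per state. Dotted lines mark 2-fold, 183 genes lie outside the axes, which run from −3 to 5, and named genes are those at least 2-fold from either control. Both axes share the array labelled Venus-Mkx, so points lie along the diagonal in any case; Grem1 and Ltbp1 sit below it and Bambi above it.

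Among the Smads, Smad3 was higher and Smad1 was lower, the latter by less than 2-fold. Smad3, a receptor-regulated Smad of the TGFβ branch, read 8.83 in C3H10T1/2, 8.88 in Venus and 10.22 on the array labelled Venus-Mkx. The controls differed by 0.05 and the third array lay 1.34 above Venus. Probe set 1450472_s_at, near the floor, read 4.27, 4.27 and 4.77. Smad2, the other Smad of that branch, read 8.45, 8.33 and 8.20 with the probe set used and 7.21, 7.12 and 7.64 with probe set 1442062_at, so its probe sets did not share a direction.

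Smad1, a receptor-regulated Smad of the BMP branch, read 9.19, 9.21 and 8.42. Its 3 probe sets were all above the floor and all lower than both controls, with differences of −0.79, −0.92 and −0.93 from Venus and none at 2-fold. Smad5, of the same branch, held 9.01 on all 3 arrays with the probe set used. Probe set 1421047_at read 6.69, 6.69 and 6.28 and probe set 1451873_a_at read 6.29, 5.96 and 5.01, both lower on the array labelled Venus-Mkx. Smad9 was below the floor. For Smad1 and Smad5 together, 5 of 6 measured probe sets were below Venus and the other was equal on all arrays. Probe sets of a gene are not replicates, and the share of all probe sets below Venus was not counted. Of all 11169 measured genes, 5115 lay below Venus with the probe set used. Smad4, the common partner, read 10.87, 10.91 and 10.87, and none of its 3 probe sets differed from either control by more than 0.23.

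The inhibitory Smads, which block receptor access and are themselves induced by the pathway in many cells, did not share a pattern. Smad6, which acts mainly on the BMP branch, read 9.61, 9.10 and 8.70 and was lowest on the array labelled Venus-Mkx, by less than 2-fold from both controls. Smad7, which acts on both branches, held 7.76 with its first probe set and 6.48 with its second on all 3 arrays.

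Equal values of this kind are frequent in the deposited table. Among all probe sets, 24.6% held the same value on all 3 arrays, and so did 23 of the 121 probe sets of the superfamily, or 19.0%. For the measured genes and the probe set used, the share was 7.48% over the series and 6 of 45 here, namely Acvr1, Gdf11, Ltbp4, Rgma, Smad5 and Smad7. At Acvr1 and Smad5 other probe sets of the same gene did differ.

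**Figure D3:**
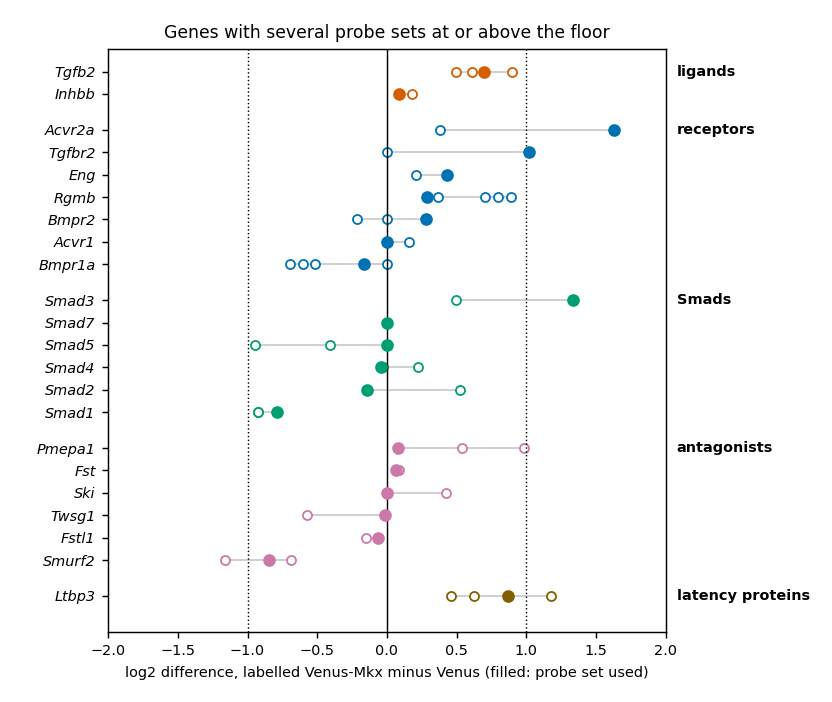
Log2 difference of the array labelled Venus-Mkx from Venus (x axis) for each probe set at or above the floor, shown for the 22 genes (y axis) with at least 2 of them, 1 array per state. Filled circles are the probe set used for the gene, open circles the others, and dotted lines mark 2-fold. All probe sets of Tgfb2, Rgmb and Ltbp3 lie above 0 and all of Smad1 and Smurf2 below, while Smad2, Smad4 and Bmpr2 have probe sets on both sides.

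Several probe sets for a gene give a second reading of the same RNA on the same array. They are not replicates, but they show how far a value depends on the probes. For 22 genes at least 2 probe sets reached the floor. All of a gene's probe sets lay on the same side of Venus for 13 genes, on opposite sides for 3, and for the other 6 some were equal to Venus. Against C3H10T1/2 the counts were 12, 5 and 5. Such counts were not made over all genes of the series, so how usual they are on these arrays is not known.

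Upstream sequence from RefSeq, on the build GRCm38.p6, is shown for Smad3, Tgfbr2 and Bmp4, a Smad, a receptor and a ligand among the 7 genes counted as higher or lower. Each run is the 250 bases before the annotated transcription start, written 5′ to 3′ on the gene's strand. Capitals mark matches on either strand to CAGAC, which holds the core bound by Smad3 and Smad4, or to GGCGCC, a GC-rich Smad site known from BMP-responsive genes; matches to the 2 motifs can share at most 1 base.
Smad3, chr9:63757995-63758244, minus strand: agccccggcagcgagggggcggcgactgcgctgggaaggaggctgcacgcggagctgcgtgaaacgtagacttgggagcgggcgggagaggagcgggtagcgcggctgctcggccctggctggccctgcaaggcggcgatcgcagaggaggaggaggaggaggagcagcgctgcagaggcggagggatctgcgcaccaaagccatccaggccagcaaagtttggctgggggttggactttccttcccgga
Tgfbr2, chr9:116175364-116175613, minus strand: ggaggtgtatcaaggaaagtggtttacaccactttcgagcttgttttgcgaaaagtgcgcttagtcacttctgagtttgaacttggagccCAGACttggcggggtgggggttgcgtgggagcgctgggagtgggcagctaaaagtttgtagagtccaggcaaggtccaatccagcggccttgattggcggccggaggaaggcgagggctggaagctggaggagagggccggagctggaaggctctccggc
Bmp4, chr14:46390670-46390919, minus strand: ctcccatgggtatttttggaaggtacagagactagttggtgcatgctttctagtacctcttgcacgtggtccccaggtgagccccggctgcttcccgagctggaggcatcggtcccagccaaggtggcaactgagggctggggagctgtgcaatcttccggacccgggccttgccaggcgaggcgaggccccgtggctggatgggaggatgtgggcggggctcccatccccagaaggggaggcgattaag

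The Tgfbr2 window held 1 match to CAGAC, starting 160 bases before the start site, and the Smad3 and Bmp4 windows held no match to either motif. Of the windows not shown, that of Acvr2a held 1 match to CAGAC, starting 188 bases before the start site. Those of Tgfb1 and Acvr1b held no match to either motif. Windows were found for 6 of the 7 genes, all but Gdf5, and for 34 of the 45 measured genes, some with several start sites. Of these 42 windows, 40.5% held CAGAC, against 40.3% of 11616 windows of measured genes and 42.2% of all 32851 windows. GGCGCC was in 12 of the 42 windows, or 28.6%, against 17.0% and 9.59%. The genes with it were Bmpr1a, Bmpr2, Chrd, Grem1, Ltbp4, Nbl1, Rgmb, Ski, Smad5, Smurf2 and Tgfbr1. None of these was counted as higher or lower, beside 12.2% of all measured genes, and they are too few to set against that share. ACANNTGT, a motif bound by Iroquois homeodomain proteins, which are related to Mkx, and able to share bases with CAGAC, was in the window of Fstl3 only, or 2.38% of the 42, against 3.49% of the windows of measured genes.

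Among the antagonists, none of 13 measured genes was counted as higher or lower, beside 12.2% of all measured genes. With 13 genes there are few to set beside that share. Grem1, Bambi and Smurf2 came close to the rule or met it against 1 control. Grem1, which encodes the secreted BMP antagonist gremlin-1, read 7.62 in C3H10T1/2, 9.15 in Venus and 7.62 on the array labelled Venus-Mkx. Only the Venus array stood out, 1.52 above both others, and the values of the other 2 arrays were equal to all deposited digits. Grem1 was the only gene of the 45 at least 2-fold apart between Venus and C3H10T1/2, where 1.49% of all measured genes were higher and 0.555% lower in Venus. It was also the only gene of the 45 at least 2-fold higher in Venus than on both other arrays, where 0.394% of all measured genes were. Its difference of −1.52 from Venus is therefore not seen against C3H10T1/2, where it is 0.00.

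Bambi, a pseudoreceptor that lacks the kinase domain, read 8.13, 7.31 and 6.80. It was at least 2-fold below C3H10T1/2, with a difference of −1.32, but not below Venus, with −0.51. Smurf2, a ubiquitin ligase that targets Smads and receptors for degradation, read 9.85, 9.70 and 8.85. Its 3 probe sets were all lower than both controls, and probe set 1429045_at, at 9.06, 8.77 and 7.61, was so by more than 2-fold. Nbl1, which encodes a secreted BMP antagonist of the DAN family, read 6.10, 6.10 and 5.32, a difference of −0.78 from each control.

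Chrd, the gene of the BMP antagonist chordin, read 4.97, 5.17 and 5.75. Bmper, which encodes a secreted BMP-binding protein, read 7.60, 7.18 and 6.98. Fstl3, related to follistatin, read 4.81, 4.86 and 5.23. Fst, the gene of the activin antagonist follistatin, read 9.50, 9.84 and 9.91, and Fstl1 and Twsg1 stayed within 0.06 of both controls with the probe set used, although a second probe set of Twsg1 differed by −0.58 from Venus and −0.52 from C3H10T1/2. Pmepa1, a TGFβ-induced inhibitor of Smad access to the receptor, read 8.85, 8.94 and 9.01 with the probe set used, and 5.53, 5.74 and 6.72 with probe set 1452295_at. The transcriptional corepressor genes Ski and Skil lay 0.00 and 0.36 above Venus with the probe set used. A second probe set of Ski, 1429192_at, read 8.43, 8.45 and 8.88, which was 0.43 above Venus and 0.45 above C3H10T1/2. Nog and Chrdl1, which encode noggin and chordin-like 1, were below the floor on all arrays.

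The genes of the latent TGFβ binding proteins, some of which store TGFβ in the matrix, differed from each other. Ltbp3 read 10.39 in C3H10T1/2, 10.63 in Venus and 11.50 on the array labelled Venus-Mkx, that is, 0.87 above Venus and 1.11 above C3H10T1/2. All 4 of its probe sets were above both controls, and probe set 1418049_at was so by 1.18 and 1.22. Ltbp1 read 7.93, 8.61 and 7.43, with Venus the highest, and the difference of the array labelled Venus-Mkx was −1.18 from Venus and −0.51 from C3H10T1/2. Ltbp2 read 10.42, 10.58 and 10.32, and Ltbp4 held 4.70.

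Outside the superfamily list, 52 further genes of ligand activation, inhibition and Smad turnover were examined. Of these, 25 were measured. On the array labelled Venus-Mkx 2 of them, or 8%, were higher than both controls and 3, or 12%, were lower, beside 6.82% and 5.34% of all measured genes. The lower genes were Tgif1, a repressor that binds Smads, at 7.96, 7.88 and 4.76, Wwp2, a ubiquitin ligase related to Smurf2, at 10.46, 9.70 and 7.45, and Fbn2, the gene of the microfibril protein fibrillin-2, at 9.82, 9.25 and 7.79. The higher genes were Itgb8, an integrin chain that activates latent TGFβ, at 5.09, 4.99 and 6.22, and Bmp1, a protease that cleaves chordin and latent TGFβ complexes, at 7.98, 8.01 and 9.03. Itgav, the partner chain of Itgb8, read 11.59, 11.43 and 10.44. The median difference from Venus over the 25 genes was 0.00.

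Of 20 genes known to respond to these pathways, 18 were measured. As read, 3 of them, or 16.7%, were higher than both controls and 6, or 33.3%, were lower, beside 6.82% and 5.34% of all measured genes. With values below the floor set to the floor, 3 were higher and 4, or 22.2%, were lower, beside 6.22% and 4.97%. Among 9 TGFβ targets, Tgfbi read 6.27, 8.30 and 11.50 and Bhlhe40, a transcriptional repressor, read 7.73, 7.66 and 9.42, whereas Ccn2 read 12.44, 12.49 and 9.70 and Acta2 13.04, 13.17 and 10.42. Cnn1 and Ldlrad4, counted as lower as read, did not reach the floor on the third array and did not meet the rule once their values there were set to the floor. Among 9 BMP targets, Id4 read 6.36, 6.47 and 9.40 and Atoh8 7.23, 7.19 and 5.36, and Id1 was the other lower gene. The median difference from Venus was −0.73 for the TGFβ targets and −0.64 for the BMP targets, against 0.00 for all measured genes, and both were near 0 between the controls, at 0.13 and 0.04.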

How the data were processed

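RNA of 3 cultures of C3H10T1/2 cells, 1 per state, was biotinylated with a GeneChip 3′ IVT Express reagent set and read on Affymetrix mouse genome arrays, 1 per state. The study's methods name MAS 5.0, and the submitters' processing notes name RMA, with no version. The authors deposited log2 values for 45101 probe sets, from 1.44 to 14.00; MAS 5.0 signals are linear, so which method made them is not settled. They were used as deposited. After 64 controls, 34945 probe sets had 1 gene symbol in GEO's platform annotation, which can be old, 932 had several and 9160 none. Each gene was read from its probe set of highest mean over the arrays, and 11169 genes with any value at or above 4.34, the median of all values, were called measured. The members and lists were chosen with earlier results of these data known. Values were given for measured genes at least 2-fold from either control, for Smads and the main TGFβ and BMP receptors, and for ligands above the 75th percentile of all values. Of the further pathway genes and the targets, up to 6 each were named, by difference from the nearer control. Other members, other probe sets, and Cnn1, Ldlrad4 and Id1 were named after their values were seen. No test was possible with 1 array per state, and so few arrays limit the precision. The counting was tested on simulated arrays with normal noise and no equal values. Recovery was required there only for true changes larger than the 2-fold rule. Alternatives changed the floor, probe set, scaling, control and fold. Upstream sequence came from RefSeq on GRCm38.p6. Python 3.11.15, NumPy 2.4.6, pandas 2.3.3 and matplotlib 3.10.9 were used.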

Additional observations from a re-analysis of the deposited data

How the results depend on the processing

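Gdf5 and Bmp4 were counted as higher and lower than both controls under all alternatives tried: no floor or a floor at the 75th percentile, averaged probe sets, no probe sets marked _x_at or _s_at, arrays centred on their medians, quantile normalization, other controls and thresholds of 1.5-fold and 3-fold. Both genes have 1 probe set each, marked neither _x_at nor _s_at, so averaging and leaving out such probe sets could not change them. A gene that meets the rule as reported also meets it with no floor and at 1.5-fold. It also meets the rule against either control or their mean, so these settings could not drop either gene. Averaging a gene's probe sets left 1 gene higher and 1 lower. The differences from Venus were then 0.72 for Smad3, 0.35 for Tgfbr2, 0.57 for Tgfb1 and −0.45 for Acvr1b. Acvr2a, at 1.01 from Venus, dropped out against C3H10T1/2. With quantile normalization 1 was lower, Acvr1b having dropped out. Centring on array medians left 4 higher, without Tgfbr2, and the floor at the 75th percentile left 4, without Tgfb1. Against Venus alone 4 genes were lower, with Grem1 and Ltbp1 added. At 1.5-fold 8 genes were higher, 5 lower and 4 apart between Venus and C3H10T1/2, and at 3-fold these counts were 1, 1 and 0. Among the settings above, shares of all measured genes were counted only against Venus alone and against C3H10T1/2 alone. The counts for the other settings, with 1.5-fold and 3-fold among them, cannot be set beside the series. The median difference from Venus stayed between −0.05 and 0.05 in the settings above that give a median. Leaving out probe sets equal on all 3 arrays, a setting chosen after seeing the data, left the 5 higher and 2 lower genes in place and gave a median of 0.07 and a Smad5 difference of −0.41. Setting values below the floor to the floor, also chosen after seeing the data, left the same 5 and 2 genes. No paired analysis was possible because each state has 1 array and no replicate numbers. Below the floor, a fold is known as a bound.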
